A study of Mus musculus with 16 samples.

Results

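The comparison described here is between the polysomal RNA of mouse embryonic stem cells (ESCs) transfected with RAM siRNA and that of ESCs transfected with a non-targeting control siRNA. Each group has 4 libraries, numbered 1 to 4, which are 8 of the 16 libraries of the study. The other 8 are from the cytoplasmic lysate that was loaded on the gradients (input). Genes were kept when they had at least 1 CPM (counts per 1000000 counts of the scaled library) in at least 4 of the 8 polysome libraries, which left 12896 of the 46983 genes listed, of which 25266 had any polysome count. All cells were of the 46C line (129Ola background), which carries GFP at the Sox1 locus, and both groups were collected 48 hr after transfection. They were treated with cycloheximide, lysates were run on sucrose gradients, and fractions 17 to 22, which hold polysomes, were pooled. Strand-specific libraries were made after removal of ribosomal RNA. The paper's text and the sample labels describe the transfection differently. Per the paper's text the cells were transfected on independent occasions and the replicates are biological. The cells are 1 line with 1 labelled RAM siRNA, so a change that comes from RAM and one that comes from another action of the siRNA cannot be told apart.

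Messenger RNAs of eukaryotic cells carry a cap, an inverted guanosine at their 5′ end. RNMT methylates this guanosine at the N7 position, and RAM, encoded by Ramac, binds RNMT and activates it. The methylated cap is bound by the cap-binding complexes that act in splicing, export and the recruitment of ribosomes. Transcripts that carry several ribosomes sediment as polysomes, so RNA in these fractions is taken as a measure of what is being translated. The counts give the make-up of the polysomal RNA and not its amount. A loss of all mRNAs from polysomes in equal measure would leave every value given here as it is. In bulk RNA, fewer cells of a type and less RNA per cell cannot be told apart.

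The control libraries held 19755690, 19604263, 18335150 and 17845867 counts in replicates 1 to 4, and the RAM siRNA libraries held 17725113, 19730549, 20147833 and 16647523. Between 19435 and 20081 genes had a count in a control library and between 19912 and 20322 in a RAM siRNA library. RAM siRNA replicate 2 stood apart from the rest. On the first principal component, which held 68.7% of the variance of 8673 genes, it lay at -56.3, while the other 7 libraries lay between -27.3 and 36.6, with control replicate 2 at -27.3. The replicate number accounted for 80.2% of the variance and the siRNA for 11.3%. Libraries with the same number deviated from their group means together (r of 0.605 to 0.950), and the number was a block in the test. The share of all genes tested beside each list below is 5.03% lowered and 9.88% raised with the 4 pairs, and 14.5% and 21.5% without replicate 2. The counts of the gene lists are given with replicate 2 and without it, and those of families by gene name and of genomic classes with the 4 pairs only.

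RAM siRNA lowered 649 genes in polysomes (5.03% of those tested) and raised 1274 (9.88%), or 14.9% in either direction (edgeR quasi-likelihood test with the replicate block, adjusted p under 0.05). The genes lowered were at a median of 0.700-fold of the control and the genes raised at 1.53-fold. At a change of 0.5 or more on the log2 scale, 345 of the lowered genes (2.68% of those tested) and 918 of the raised genes (7.12%) remained. The 4 RAM siRNA values lay below all 4 control values for 484 genes (3.75%) and above them for 358 (2.78%). The median log2 fold change of all genes was 0.03. Scaled by library size alone, in place of TMM, 882 genes were lower and 981 higher. Without replicate 2, 1873 genes were lower (14.5%) and 2769 higher (21.5%), and all 1923 genes called with the 4 pairs had the same direction. The libraries left are among those that made the calls, so the same direction was likely beforehand. Without the block 9 genes were lower and 9 higher.

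**Figure D1:**
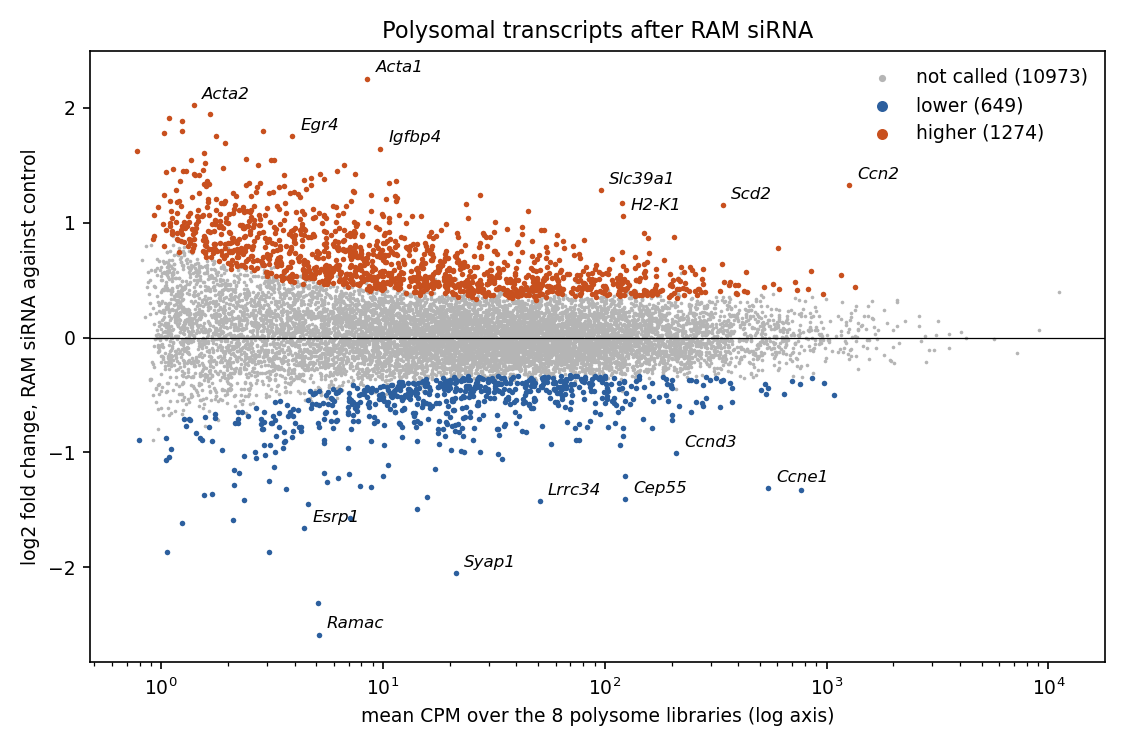
Log2 fold change of RAM siRNA over control in polysomes (y axis) against the mean level over the 8 libraries (x axis, CPM, log scale) for the 12896 genes tested, with the 649 lower and 1274 higher genes coloured. Ramac and Syap1 lie lowest among the labelled genes and Acta1 highest, and the raised genes are more frequent at low levels.

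Raised genes were more frequent among genes of low level. With the genes cut into 5 equal classes by mean CPM over the 8 libraries, from the lowest to the highest, 14.4%, 13.6%, 8.49%, 6.94% and 5.93% rose. They were also more frequent among genes with a GC-rich coding sequence, with 6.13% raised in the lowest of 5 classes of GC content and 12.8% in the highest. These classes also differed in level, with a median control level of 33.9 CPM in the lowest and 14.2 CPM in the highest. On the X chromosome 71 of 488 genes rose (14.5%, beside 9.88% of all genes), at a median control level of 12.6 CPM against 22.5 CPM for all genes. The parts of level, GC content and chromosome were not separated. Genes at 1 CPM or more in all RAM siRNA libraries and in no control library numbered 17, and the reverse was seen for 4. Such genes pass the filter through the group in which they are high, so these counts are a description and no separate support for the rises. The falls did not follow the level in this way, with 3.06%, 6.44%, 6.79%, 5.002% and 3.88% lowered from the lowest class to the highest.

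Ramac (chr7:81762925-81769491, GRCm38, plus strand), the target of the siRNA, was at 6.01, 6.47, 8.64 and 13.8 CPM in control replicates 1 to 4 and at 0.917, 0.273, 2.34 and 2.52 CPM with RAM siRNA. The groups did not overlap, and replicate 2 had the lowest level left. The log2 fold change was -2.59 (SE 0.24, adjusted p = 2.25e-05). Rnmt, the catalytic partner of RAM, rose from 363 ± 76.0 to 487 ± 140 CPM (SD, n = 4; log2 fold change 0.40, SE 0.11, adjusted p = 0.0270), higher in 4 of 4 pairs although the groups overlapped. Of the 19 genes of cap formation and methylation tested, 1 rose, Rnmt, and 3 fell, Ramac among them (3 higher and 4 lower without replicate 2). The other 2 were Cmtr2, which methylates the ribose of the second transcribed nucleotide (27.2 ± 4.48 to 20.3 ± 4.03 CPM), and Dcps, the scavenger decapping enzyme (81.6 ± 14.9 to 59.8 ± 13.2 CPM).

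The genes with the smallest p among the falls were Syap1, Lrrc34, Cep55 and Chil1. Syap1 (chrX:162857057-162888447, minus strand), which encodes a synapse-associated protein, was at 37.4, 34.3, 33.0 and 32.4 CPM in control and at 7.96, 5.95, 9.56 and 9.91 CPM in RAM siRNA polysomes. The RAM siRNA values were all far below the lowest control value, and the log2 fold change was -2.05 (SE 0.14, adjusted p = 9.15e-07). Cep55 (chr19:38055011-38074423, plus strand) encodes a midbody protein of the last step of cytokinesis. It was at 211, 203, 148 and 153 CPM in control and at 71.1, 83.4, 59.5 and 55.5 CPM with RAM siRNA, with no overlap (log2 fold change -1.41, SE 0.11, adjusted p = 3.51e-06). Lrrc34, a leucine-rich repeat protein of pluripotent and germ cells, fell from 74.2 ± 7.79 to 27.6 ± 3.01 CPM, and Chil1, a chitinase-like secreted protein, from 20.9 ± 5.60 to 7.54 ± 2.76 CPM.

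Syap1 and Cep55 were also the 2 genes whose change differed between polysomes and input, both being lower in polysomes. In input, Syap1 was at 30.8, 31.9, 24.8 and 27.3 CPM in control and at 16.7, 18.2, 16.5 and 13.7 CPM with RAM siRNA, a log2 fold change of -0.82. Its change in polysomes exceeded that in input by -1.29 on the log2 scale (edgeR interaction with the block within each fraction, adjusted p = 0.00215). Cep55 was at 315, 334, 304 and 297 CPM in control input and at 228, 276, 251 and 185 CPM in RAM siRNA input, and the difference of its changes was -1.04 (adjusted p = 0.00188). Neither passed without the block or with a factor for each culture, where 0 genes did (97 and 177 genes at an unadjusted p under 0.05). No gene changed more upwards in polysomes than in input at this threshold, and 655 genes (5.08% of those tested) had an unadjusted p under 0.05 for a difference in either direction.

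Across all 12896 genes, 2446 were lower (19.0%) and 2601 higher (20.2%) in input with the same filter and block. Of the 649 genes lowered in polysomes, 573 were also lowered in input, 1 was raised and 75 did not pass. Of the 1274 genes raised in polysomes, 1100 were also raised in input, 1 was lowered and 173 did not pass. The libraries of both fractions come from the same lysates, so these are not independent of each other.

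The remaining largest falls among genes of at least 10 CPM included enzymes, checkpoint proteins and signal transducers. Coq3, a methyltransferase of coenzyme Q synthesis, was at 51.9, 45.1, 45.4 and 44.2 CPM in control and at 21.9, 24.0, 21.6 and 21.8 CPM with RAM siRNA, so that the groups were far apart and each was narrow. Hus1, a subunit of the DNA damage checkpoint clamp, fell from 23.7 ± 1.30 to 10.7 ± 1.68 CPM, and Trdmt1, a tRNA methyltransferase, from 14.4 ± 2.82 to 6.61 ± 0.536 CPM. Mpc1, a subunit of the mitochondrial pyruvate carrier, fell from 13.9 ± 3.27 to 6.11 ± 1.94 CPM, and Plcb4, a phospholipase C, from 43.8 ± 14.2 to 22.2 ± 9.79 CPM. Among the 12 smallest p-values of the falls were also Gna14, a G protein alpha subunit (log2 fold change -0.999), Rnf6, a ubiquitin ligase (-0.99), and the tetraspanin Tspan1 (-1.29).

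A short word was more frequent in the 3′ untranslated regions (UTRs) of the lowered genes than in those of all genes. A UTR of at least 8 bases was found for 12055 of the genes tested, 627 of them lowered and 1221 raised, using 1 transcript a gene and the sense strand. The 6-base word ACTATC was present in the 3′ UTR of 34.8% of the lowered genes (218), against 13.5% of all genes and 9.91% of the raised genes. Of all 4096 words of 6 bases it had the largest excess in the lowered genes, and its 7-base form ACTATCA had the largest of 16384 words of 7 bases (19.3% of lowered, 5.12% of all and 2.62% of raised genes). Since the words were ranked on these genes, the ranks are a description. The sites of several of the strongest falls are printed here to show the word in its setting, in GRCm38 with the transcribed strand 5′ to 3′ and the word in capitals, with a final A where the 7-base form is present.
Syap1 (chrX:162857517-162857541, minus strand): aaagtacttACTATCAgaaagtaat
Syap1 (chrX:162857496-162857520, minus strand): taatatcttACTATCAaaatgacca
Esrp1 (chr4:11333430-11333454, minus strand): gatcctgaaACTATCAgacaagaga
Plcb4 (chr2:136014097-136014121, plus strand): tattatttgACTATCAagactttta
Ccne1 (chr7:38097984-38098004, minus strand): aaagataatACTATCtttgaa
Coq3 (chr4:21911205-21911228, plus strand): tacagtatcACTATCttcagatac
Hus1 (chr11:8993497-8993520, minus strand): tggctatttACTATCcgtgggaaa
Syap1 has 4 sites in its UTR of 827 bases, and the others printed have 1 each. Lrrc34, Chil1, Cldn7 and Ccnd3 have none in the transcript used, which says only that these letters are not in that UTR, and Cep55 was not among the genes with a UTR to search.

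By size of change, as a description of the genes on which the word was chosen, the share of genes with ACTATC was 40.5% of the genes that fell by 1 or more on the log2 scale (15 of 37), 39.1% of those that fell by 0.5 to 1, 29.7% of those that fell by less, and 12.6% of the genes not called. A difference of this kind was present at each UTR length. In 5 classes of genes from the shortest 3′ UTRs to the longest, 33.3%, 19.0%, 24.1%, 15.7% and 8.05% of the genes with ACTATC were lowered, against 4.17%, 4.42%, 4.55%, 3.78% and 2.11% of the genes without it. The median 3′ UTR was 988 bases for all genes, 979 for lowered and 1000 for raised genes.

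The raised genes had their largest excess over all genes in a different word of 6 bases. TGCTCA was in the 3′ UTR of 43.1% of the raised genes, 34.3% of all genes and 27.1% of the lowered genes. By size of the rise it was in 45.8% of the genes raised by under 0.5 on the log2 scale, 43.0% at 0.5 to 1 and 37.3% at 1 or more. Without replicate 2, the lowered genes held ACTATC in 24.2% and the raised genes held TGCTCA in 37.5%. Genes with ACTATC accounted for 218 of the 627 lowered genes with a UTR, and 409 had none. The search of seeds covered 1679 mature mouse miRNAs of RefSeq, which are not all that it holds, and took only full pairing from base 2 of the miRNA. Among them none pairs with ACTATC and 1, mmu-miR-7018-5p, pairs with TGCTCA. An siRNA can lower transcripts other than its target when its seed pairs with their 3′ UTRs. The siRNA sequences are not given in the sources used here, and the part of such pairing in these changes was not tested.

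**Figure D2:**
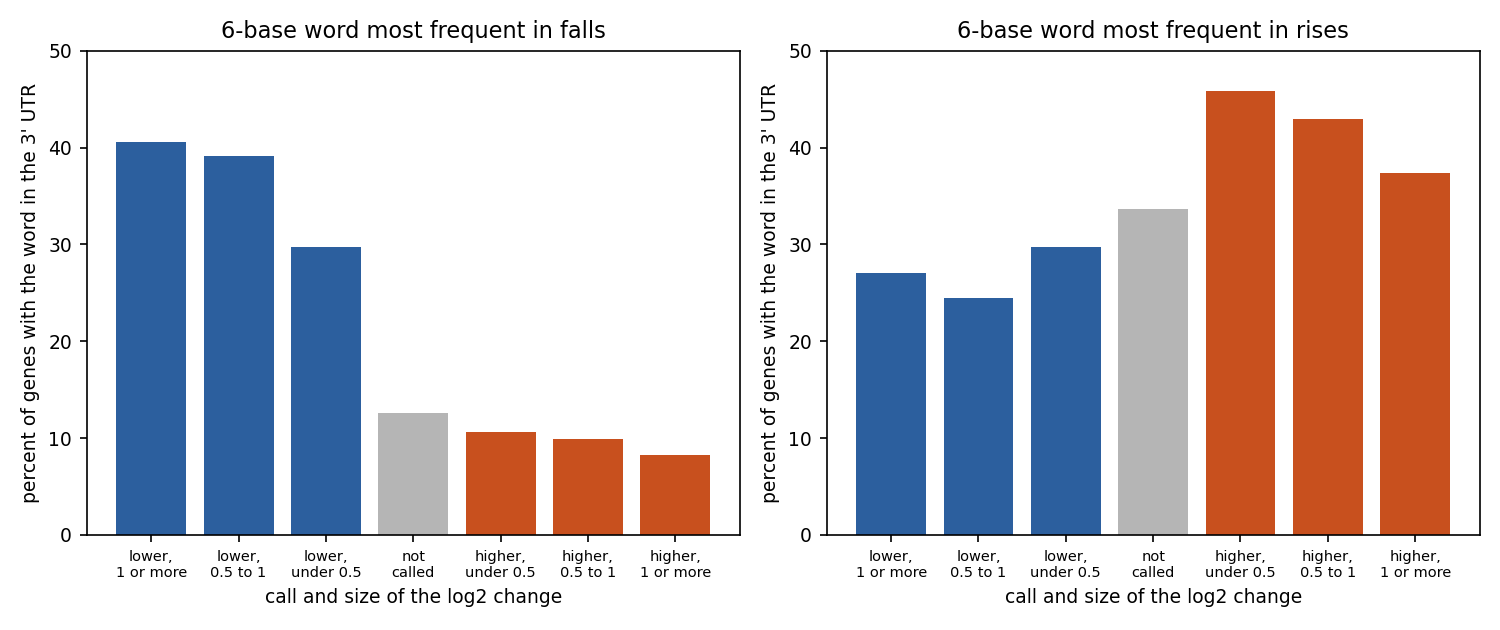
Share of genes (y axis, percent) whose 3′ UTR holds ACTATC or TGCTCA, for genes grouped by their change in polysomes (x axis). ACTATC falls from 40.5% of the genes that fell by 1 or more to 8.23% of those that rose by 1 or more, and TGCTCA is more frequent among the raised genes.

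Cell cycle genes moved in both directions. Of 35 G1 and S cyclins, kinases and their regulators, 8 fell (22.9%, beside 5.03% of all genes) and 5 rose (14.3%, beside 9.88%). Without replicate 2, 10 fell and 7 rose, beside 14.5% and 21.5% of all genes. Ccne1, the cyclin E that drives entry into S phase, was at 692, 744, 924 and 733 CPM in control and at 300.5, 245, 426 and 293 CPM in RAM siRNA polysomes. The highest RAM siRNA value lay below the lowest control value, and the log2 fold change was -1.31 (SE 0.12, adjusted p = 2.25e-05). Ccnd3, a D cyclin of G1, was at 255, 258, 279 and 329.6 CPM in control and at 125, 112, 159 and 167 CPM with RAM siRNA (log2 fold change -1.004, adjusted p = 6.69e-05). The other D cyclins rose, Ccnd1 from 8.46 ± 1.53 to 14.7 ± 1.86 CPM and Ccnd2 from 2.47 ± 1.46 to 4.63 ± 2.06 CPM. E2f8, a repressor of E2F targets, fell from 18.4 ± 1.38 to 11.03 ± 1.12 CPM. The cyclin-dependent kinase inhibitors Cdkn1a (log2 fold change 0.64) and Cdkn2a (0.63) and the Myc family gene Mycl (0.63) made up the rest of the rises.

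Genes of DNA replication and mitosis that were called with the 4 pairs all fell. Of 53 DNA replication genes 5 fell and 0 rose, namely Rfc5 and Rfc3 of the clamp loader, Rrm2 of ribonucleotide reductase, and Prim1 and Pola2 of the primase-polymerase complex. Rrm2 was at 457, 417, 414 and 424 CPM in control and at 297, 368, 286 and 320 CPM with RAM siRNA, lower in 4 of 4 pairs with no overlap (log2 fold change -0.43, adjusted p = 0.0214). Of 70 genes of mitosis, cytokinesis and the midbody, 6 fell and 0 rose: after Cep55 these were the B cyclins Ccnb2 (298 ± 29.4 to 192 ± 32.3 CPM) and Ccnb1 (626 ± 53.3 to 465 ± 63.5 CPM), the ESCRT gene Tsg101, the phosphatase Cdc25c and the checkpoint gene Bub3. Without replicate 2 the counts were 26 lower and 4 higher for DNA replication and 33 lower and 0 higher for mitosis, beside 14.5% lower and 21.5% higher of all genes. The median of the mitosis genes was -0.23, -0.19 and -0.15 in pairs 1, 3 and 4 and 0.16 in pair 2. With the 4 pairs the shares lowered were 9.43% and 8.57%, beside 5.03% of all genes.

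Of 40 genes of p53 and its targets, 6 fell (15.0%, beside 5.03% of all genes) and 3 rose (7.5%, beside 9.88%), and 12 fell and 8 rose without replicate 2. Sfn, an inhibitor of mitotic entry also known as 14-3-3 sigma, was at 30.7, 25.6, 31.5 and 31.5 CPM in control and at 12.8, 13.4, 16.4 and 17.9 CPM with RAM siRNA, with no overlap (log2 fold change -0.98, adjusted p = 8.71e-05). Phlda3, an Akt inhibitor, fell from 53.3 ± 11.7 to 31.4 ± 11.6 CPM, Gadd45a from 44.6 ± 10.2 to 30.4 ± 9.95 CPM and Dglucy from 83.5 ± 20.8 to 58.0 ± 20.02 CPM. The rises were Cdkn1a, Cdkn2a and the autophagy gene Trp53inp2 (log2 fold change 0.53).

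**Figure D3:**
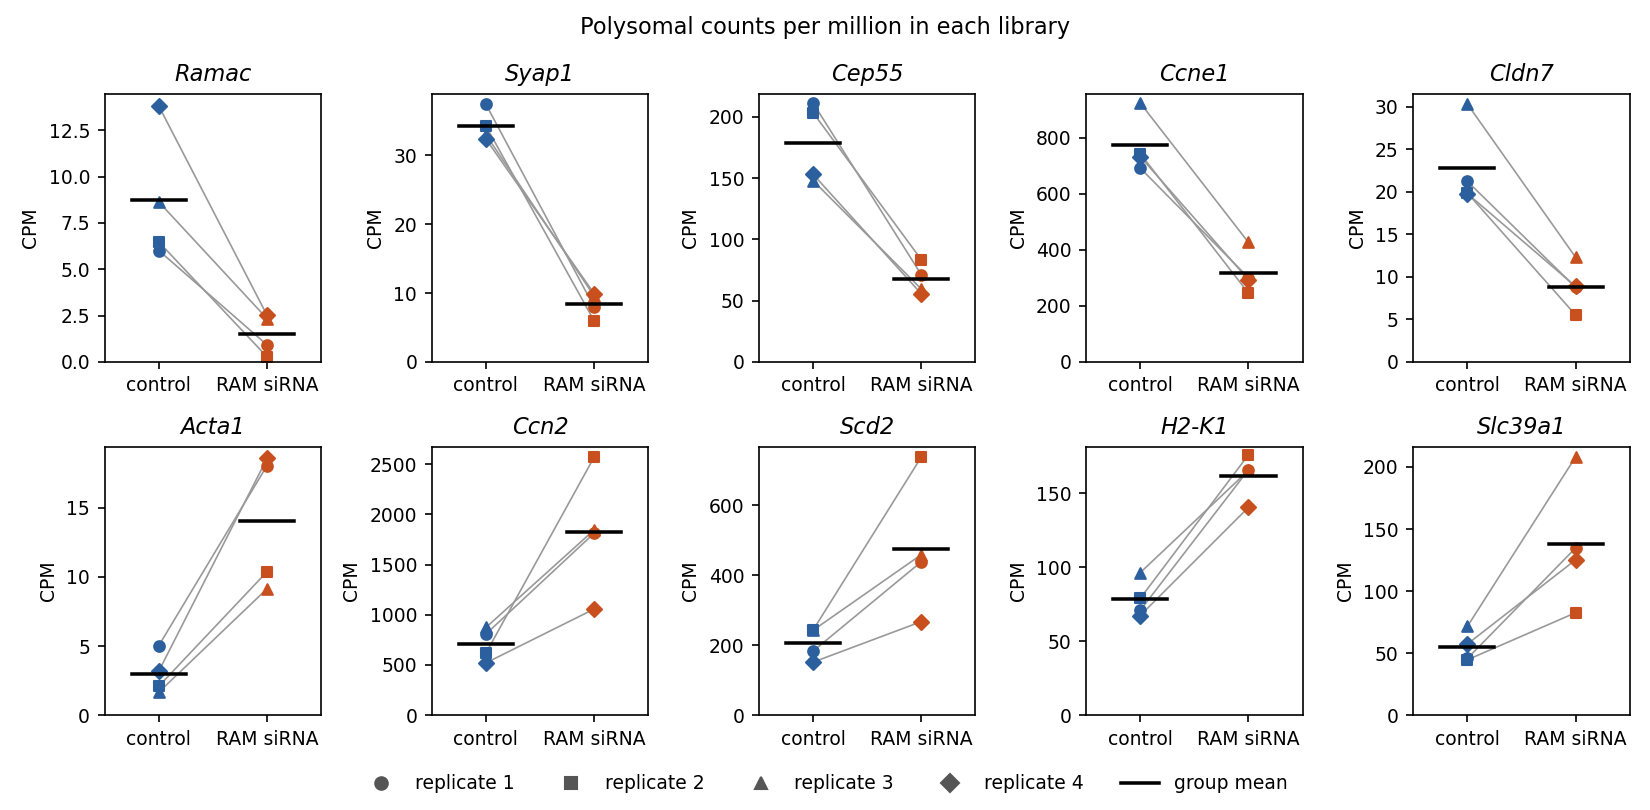
CPM in each polysome library (y axis, from 0) for 10 genes named in the text, in control and RAM siRNA (x axis), with lines joining libraries of the same replicate number and bars at the group means. In Syap1, Cep55 and Ccne1 all 4 RAM siRNA libraries lie below the control libraries, and in Acta1, H2-K1 and Scd2 they lie above them.

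Genes of epithelial adhesion fell more often than they rose, with 10 lower (24.4%, beside 5.03% of all genes) and 2 higher (4.88%, beside 9.88%) of 41 and a median log2 fold change of -0.18. Cldn7, a tight junction claudin, was at 21.2, 19.9, 30.3 and 19.8 CPM in control and at 8.77, 5.52, 12.3 and 8.88 CPM with RAM siRNA. The groups did not overlap, and the log2 fold change was -1.38 (SE 0.13, adjusted p = 2.70e-05). Esrp1, which directs epithelial splicing, fell from 6.69 ± 0.571 to 2.11 ± 0.257 CPM (log2 fold change -1.66, adjusted p = 3.10e-05). Ap1m2, an adaptor of basolateral sorting, fell from 9.24 ± 2.06 to 4.74 ± 1.04 CPM. The rises were the junction protein Cgn (log2 fold change 1.25) and the desmosomal cadherin Dsc2 (0.80). In the list, 14 were lower (34.1%, beside 14.5%) and 5 higher (12.2%, beside 21.5%) without replicate 2.

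Of 23 mesenchymal marker genes 10 rose (43.5%, beside 9.88% of all genes) and 2 fell with the 4 pairs, and 10 rose and 3 fell without replicate 2. Their median was 0.46, 0.46, 0.28 and 0.05 in pairs 1 to 4. Igfbp4, an insulin-like growth factor binding protein, was at 3.60, 3.64, 4.76 and 6.37 CPM in control and at 14.8, 7.15, 20.3 and 16.8 CPM with RAM siRNA, with no overlap and replicate 2 lowest (log2 fold change 1.65, SE 0.17, adjusted p = 4.20e-05). Igfbp3 rose from 54.3 ± 6.43 to 90.8 ± 19.3 CPM, the collagen crosslinking enzyme Loxl1 from 11.8 ± 2.07 to 21.7 ± 4.78 CPM and the metalloproteinase inhibitor Timp3 from 9.76 ± 2.48 to 16.5 ± 3.97 CPM. The falls were Vim, the intermediate filament protein vimentin, from 392 ± 68.1 to 267 ± 99.1 CPM, and Timp1 from 128 ± 20.7 to 91.1 ± 26.6 CPM. Outside the list, Snai3, a repressor of the Snail family, fell from 6.75 ± 0.684 to 2.48 ± 0.607 CPM. The members that changed do not all go the way the list's name points.

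Contractile genes and targets of SRF and YAP, regulators of transcription that respond to actin and to cell tension, rose in 11 of 53 cases (20.8%, beside 9.88% of all genes) and fell in 2. Acta1, skeletal muscle alpha actin, had the largest rise of all genes tested. It was at 5.03, 2.09, 1.66 and 3.18 CPM in control and at 18.0, 10.4, 9.14 and 18.6 CPM with RAM siRNA (log2 fold change 2.26, SE 0.16, adjusted p = 9.15e-07). No RAM siRNA value reached down to the control values. Acta2, the smooth muscle actin, rose from 0.546 ± 0.0918 to 2.25 ± 0.583 CPM, so that it passed the filter on low counts only through the RAM siRNA libraries, and Tagln, an actin-binding protein of smooth muscle, from 14.6 ± 5.75 to 32.5 ± 12.2 CPM. The actin genes are similar in their coding sequences, so reads may be split between them and their values are less certain. Ccn2, a matricellular YAP target, was at 808, 618, 874 and 521 CPM in control and at 1814, 2572, 1846 and 1058 CPM with RAM siRNA, with no overlap (log2 fold change 1.33, adjusted p = 0.000102). Myl9, a myosin light chain, rose from 12.9 ± 6.84 to 25.4 ± 12.8 CPM in 4 of 4 pairs with overlapping groups. The falls of the list were Junb (log2 fold change -0.34) and Ajuba (-0.33). Ttn, the giant sarcomere protein titin, is not in the list and rose from 68.6 ± 33.1 to 172 ± 118 CPM. Without replicate 2 the list had 17 higher (32.1%, beside 21.5%) and 7 lower (13.2%, beside 14.5%).

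Of 32 basement membrane and collagen genes 6 rose (18.8%, beside 9.88% of all genes) and 0 fell, but the median of 0.29 came mostly from pair 2, in which it was 0.75, against 0.15, 0.10 and -0.05 in pairs 1, 3 and 4. Without replicate 2 the median was 0.05, with 6 higher (18.8%) and 3 lower (9.38%), both below the 21.5% and 14.5% of all genes. P4ha2, a collagen prolyl hydroxylase, rose from 11.5 ± 2.89 to 18.5 ± 6.71 CPM, Fbln1 from 42.7 ± 8.83 to 59.6 ± 22.6 CPM and Smoc1 from 31.0 ± 4.50 to 40.8 ± 7.21 CPM. Col5a2, a fibrillar collagen, was at 3.15, 4.28, 1.05 and 1.19 CPM in control and at 2.81, 10.98, 2.44 and 1.66 CPM with RAM siRNA, where replicate 2 stood out and pair 1 fell. Its log2 fold change was 0.77 (adjusted p = 0.0368) with the 4 pairs and 0.39 (adjusted p = 0.226) without replicate 2.

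Genes of MHC class I antigen presentation had the highest share of rises among the lists with over 10 genes, 9 of 17 (52.9%, beside 9.88% of all genes), with 2 falls. The median log2 fold change was 0.65, and the pair medians were 0.51, 0.51, 0.44 and 0.46. H2-K1, a classical class I heavy chain, was at 70.9, 79.0, 96.4 and 67.4 CPM in control and at 166, 176, 166 and 141 CPM with RAM siRNA, with a wide gap between the groups (log2 fold change 1.06, SE 0.12, adjusted p = 5.38e-05). H2-D1 rose from 89.4 ± 19.5 to 149 ± 24.0 CPM. H2-Q7 rose from 3.44 ± 0.847 to 9.87 ± 2.88 CPM, and H2-Q10, H2-Q4 and H2-M3 also rose. These heavy chain genes are near copies of each other and reads may be shared between them, so the H2 genes are not separate pieces of evidence. B2m, the light chain, was at 16.9, 13.6, 39.1 and 24.2 CPM in control and at 38.7, 16.001, 66.5 and 41.9 CPM with RAM siRNA, higher in 4 of 4 pairs with overlapping groups (log2 fold change 0.76, adjusted p = 0.00166). The peptide transporter gene Tap2 (log2 fold change 0.91) and the immunoproteasome gene Psmb9 (1.09) rose, while the peptide-loading gene Tapbp (-0.44) and the proteasome activator Psme2 (-0.41) fell. The count was 9 and 2 without replicate 2 as well.

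The 32 genes of the interferon and cap-sensing response had 6 falls (18.8%, beside 5.03% of all genes) and 0 rises. Irgm1, an interferon-induced GTPase, was at 6.16, 8.32, 8.03 and 7.61 CPM in control and at 2.41, 4.59, 3.01 and 3.38 CPM with RAM siRNA, with no overlap (log2 fold change -1.18, adjusted p = 0.000152). Ifit2, a protein of the IFIT family that binds RNA, fell from 1.68 ± 0.285 to 0.458 ± 0.155 CPM and passed the filter only through the control libraries. Oas2 fell from 7.55 ± 2.07 to 4.71 ± 2.25 CPM and Ifitm3 fell from 252 ± 117 to 180 ± 118 CPM. The list median was -0.23, and it was below 0 in each of the 4 pairs. Without replicate 2 it had 14 lower (43.8%, beside 14.5%) and 2 higher.

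**Figure D4:**
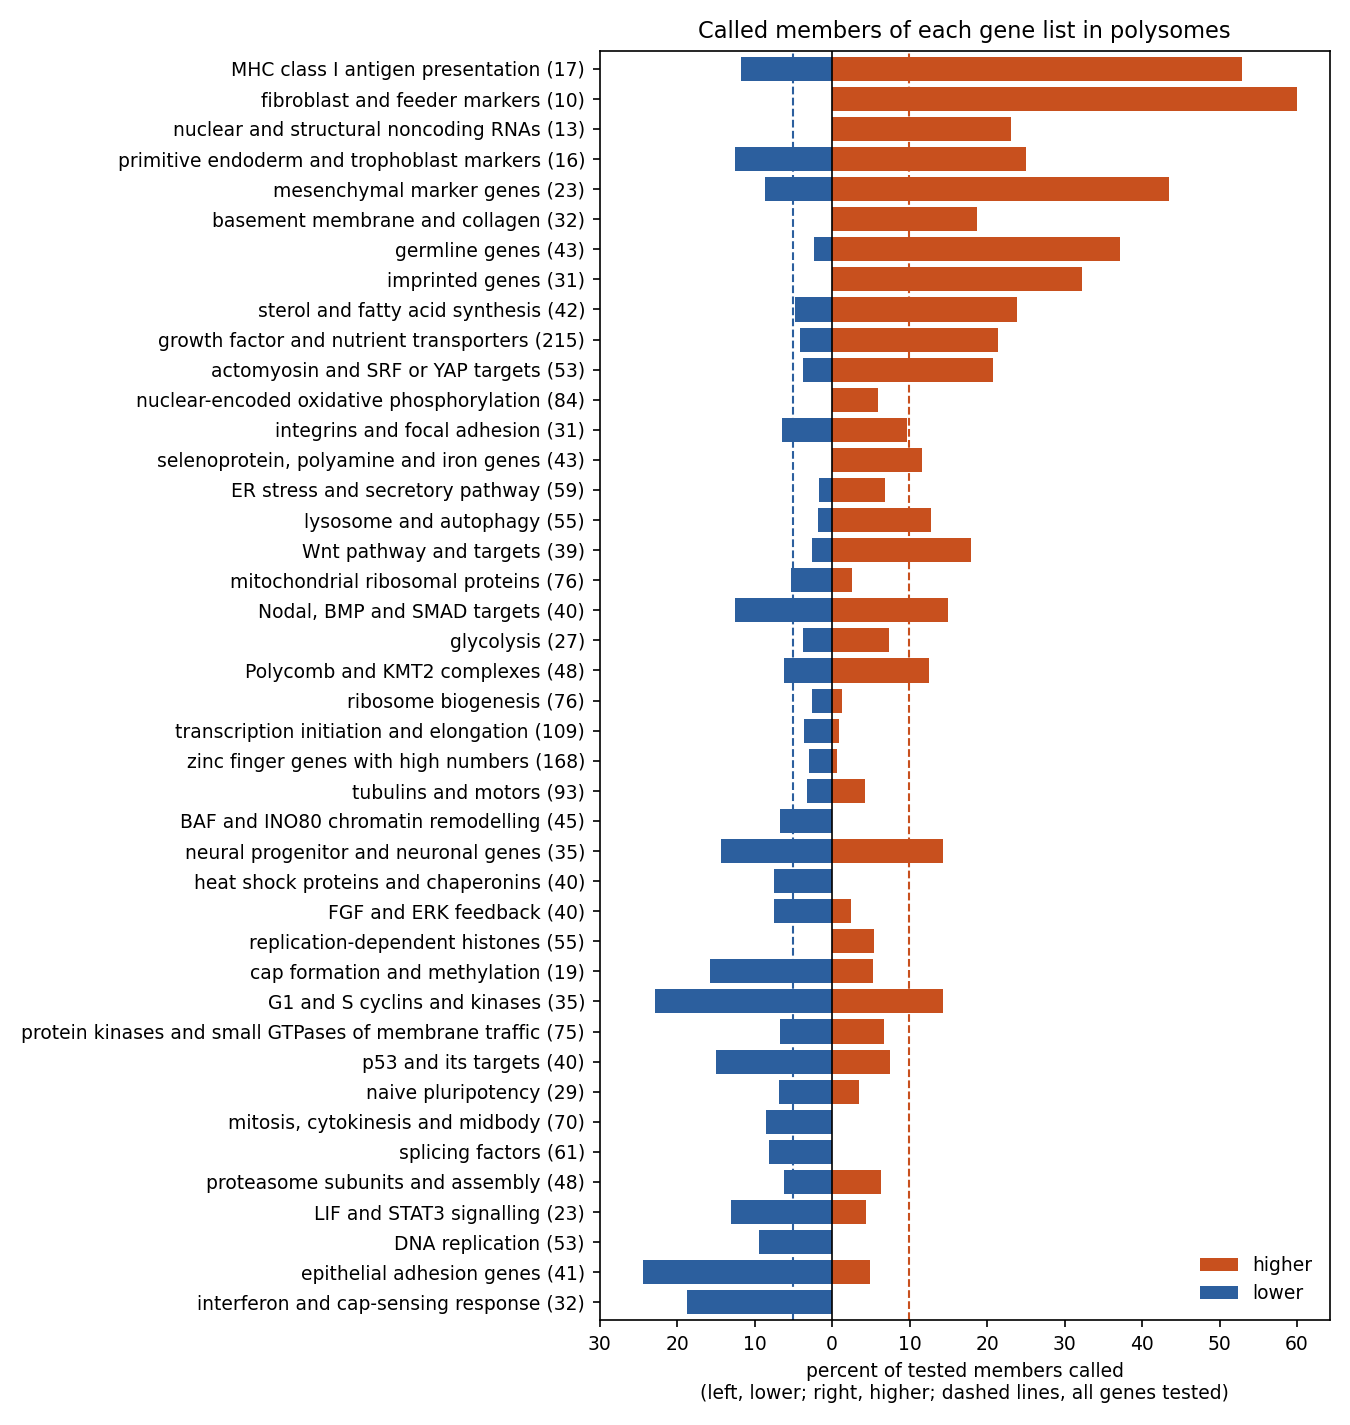
Percent of tested members (x axis) lowered (left) and raised (right) in RAM siRNA polysomes for the gene lists with at least 3 calls (y axis, number tested in parentheses), in order of their median log2 fold change, with dashed lines at 5.03% and 9.88% of all genes tested. The MHC class I and fibroblast and feeder lists lie farthest to the higher side, and the epithelial and G1 and S lists farthest to the lower side.

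Of 215 growth factor and nutrient transporter genes 46 rose (21.4%, beside 9.88% of all genes), 9 fell and 160 were not called, and 76 rose and 19 fell without replicate 2. Of all 239 Slc genes tested 52 rose and 9 fell, with a median of 0.19. Slc39a1, a zinc importer, was at 45.7, 44.6, 71.5 and 57.3 CPM in control and at 135, 82.6, 208 and 125 CPM with RAM siRNA, with no overlap and replicate 2 lowest among the RAM siRNA values (log2 fold change 1.28, SE 0.13, adjusted p = 3.54e-05). Slc17a7, a vesicular glutamate transporter, rose from 6.88 ± 1.33 to 16.1 ± 5.36 CPM, Slc8a2, a sodium-calcium exchanger, from 2.59 ± 0.426 to 6.91 ± 2.37 CPM and Slc1a6, a glutamate transporter, from 0.800 ± 0.231 to 2.72 ± 0.770 CPM, where Slc1a6 passed the filter through the RAM siRNA libraries and 1 control library. Slc3a2, the amino acid transporter chain and the member with the highest CPM, was at 1826 ± 292 and 2328 ± 727 CPM and did not pass (adjusted p = 0.145). The pair medians of the transporters were 0.30, 0.21, 0.18 and -0.01. Among other families of membrane proteins, grouped by gene name and picked after their values were seen, the share raised was 18.3% of 169 Tmem genes, 22.2% of 36 Cd genes and 28.6% of 21 Cyp genes, and it was 8.96% of 67 Atp genes, 6.67% of 15 Mfsd genes and 11.1% of 18 Zdhhc genes. Of 341 Zfp genes, which encode zinc finger proteins of the nucleus, 4 rose (1.17%, beside 9.88% of all genes). In the same family 15 fell (4.40%, near the 5.03% of all genes).

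Lipid synthesis genes rose in 10 of 42 cases (23.8%, beside 9.88% of all genes) and fell in 2, and in 17 (40.5%, beside 21.5%) and 5 without replicate 2. Scd2, a stearoyl-CoA desaturase, was at 183, 244, 243 and 152 CPM in control and at 439, 739, 459 and 268 CPM with RAM siRNA, and every RAM siRNA value lay above the control values (log2 fold change 1.15, SE 0.14, adjusted p = 8.71e-05). Acss2, an acetyl-CoA synthetase, rose from 8.45 ± 1.48 to 15.7 ± 4.30 CPM, and the sterol enzymes Dhcr7 and Tm7sf2 from 43.2 ± 8.998 to 70.5 ± 26.4 CPM and from 64.2 ± 15.1 to 100.4 ± 33.7 CPM. The falls were Elovl6 (log2 fold change -0.50), a fatty acid elongase, and Acly (-0.44), ATP citrate lyase. Outside the list, the triglyceride enzyme Dgat2 rose from 16.04 ± 4.10 to 38.8 ± 13.3 CPM and the elongase Elovl2 from 15.7 ± 2.99 to 32.6 ± 7.96 CPM. The list median lay above 0 in each pair.

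The lysosome and autophagy list had 7 rises (12.7%, beside 9.88% of all genes) and 1 fall of 55, and without replicate 2 it had 17 and 9, beside 21.5% and 14.5% of all genes. Ctsh, a lysosomal cysteine protease, was at 5.42, 5.38, 8.53 and 6.15 CPM in control and at 20.6, 11.1, 19.4 and 15.1 CPM with RAM siRNA, with no overlap (log2 fold change 1.36, adjusted p = 5.38e-05). Ctsf rose from 40.3 ± 7.72 to 62.3 ± 20.7 CPM and Cln3 from 51.8 ± 11.2 to 71.5 ± 16.1 CPM. The fall was Tfeb, a transcription factor that activates lysosomal genes, from 45.3 ± 5.23 to 33.4 ± 6.91 CPM. In the secretory pathway 4 of 59 genes rose, a share of 6.78% that is below the 9.88% of all genes, and 1 fell, while 18 rose and 10 fell without replicate 2. Ssr3 and Ssr2, subunits of the translocon-associated complex, rose from 435 ± 65.6 to 771 ± 245 CPM and from 927 ± 222 to 1402 ± 523 CPM, with Srp14 (log2 fold change 0.45) and Ern1 (0.45), and the coat protein gene Sec13 fell from 184 ± 9.91 to 113 ± 11.5 CPM.

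Other rises with a large change or a small p were of genes of several kinds. Coch, the extracellular protein cochlin, was at 31.4, 25.2, 32.3 and 25.2 CPM in control and at 76.7, 57.2, 63.9 and 48.9 CPM with RAM siRNA (log2 fold change 1.10, SE 0.11, adjusted p = 3.49e-05), well above every control value. Rbp4, the retinol carrier, rose from 6.76 ± 1.67 to 16.5 ± 6.83 CPM, Igfbpl1 from 6.20 ± 0.788 to 14.5 ± 3.19 CPM and the heparan sulfate-cleaving enzyme Hpse from 5.24 ± 0.797 to 12.4 ± 1.78 CPM. Endod1 (log2 fold change 1.23), the choline-breakdown enzyme Dmgdh (1.34) and the somatostatin receptor Sstr5 (1.38) rose as well.

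Germline genes rose in 16 of 43 cases (37.2%, beside 9.88% of all genes) and fell in 1, Lrrc34, with 22 (51.2%, beside 21.5%) and 2 without replicate 2 and pair medians of 0.29, 0.21, 0.31 and 0.26. Dazl, an RNA-binding protein of germ cells, was at 116, 131, 119 and 117 CPM in control and at 184, 222, 174 and 183 CPM with RAM siRNA, a clear gap (log2 fold change 0.66, SE 0.11, adjusted p = 0.00101). Taf7l, a testis form of a TFIID subunit, rose from 29.2 ± 4.18 to 51.7 ± 4.24 CPM and Tex101, a testis surface protein, from 4.05 ± 0.665 to 10.9 ± 2.83 CPM. Stra8, which acts at the entry into meiosis, rose from 94.5 ± 17.1 to 148 ± 43.9 CPM, and the helicase gene Ddx4 had a log2 fold change of 0.48. Zp3, a protein of the egg coat that is not in the list, rose from 8.47 ± 0.577 to 16.9 ± 1.56 CPM. It was among the 18 genes called even without the block.

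Of 31 imprinted genes, expressed from one parental copy, 10 rose (32.3%, beside 9.88% of all genes) and 0 fell. Dlk1, a Notch-like ligand of the paternal copy, was at 3.40, 3.29, 6.86 and 3.94 CPM in control and at 9.80, 8.63, 13.7 and 9.34 CPM with RAM siRNA, with no overlap (log2 fold change 1.27, adjusted p = 6.22e-05). Phlda2 rose from 4.95 ± 1.92 to 10.4 ± 5.60 CPM and Nnat from 4.12 ± 1.41 to 8.08 ± 3.79 CPM. Kcnq1ot1, a long noncoding RNA antisense to Kcnq1, was at 37.1, 22.6, 14.2 and 6.15 CPM in control and at 57.5, 59.7, 29.3 and 7.22 CPM with RAM siRNA, so that the spread between replicates exceeded the change (log2 fold change 0.87, adjusted p = 0.00146). The strand setting of the counting is not given in the sources used here, so reads of Kcnq1ot1 and of the gene on the other strand cannot be told apart. With replicate 2 left out, 13 were higher (41.9%, beside 21.5%) and 1 lower.

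Among the replication-dependent histone genes, whose mRNAs lack a poly(A) tail, 3 of 55 rose with the 4 pairs (5.45%, beside 9.88% of all genes), namely Hist1h2aa, Hist1h2ba and Hist3h2ba. Hist1h2aa was at 2.66, 2.44, 3.99 and 7.28 CPM in control and at 5.27, 3.93, 8.88 and 18.5 CPM with RAM siRNA (log2 fold change 1.08, adjusted p = 0.000299). Histone genes are near copies of each other, and reads may be shared between them. The median over the list was -0.07, with a value of -0.60 in pair 2 against 0.01, 0.28 and 0.08 in the others. When replicate 2 was left out, 17 rose and 0 fell, and the median was 0.10.

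Of the FGF and ERK list of 40 genes 3 fell (7.5%, beside 5.03% of all genes) and 1 rose (2.5%, beside 9.88%), and 8 fell and 5 rose without replicate 2. Map2k1, the kinase MEK1 that activates ERK, was at 158, 152, 142 and 161 CPM in control and at 80.6, 71.9, 79.4 and 89.0 CPM with RAM siRNA, with each group narrow and no overlap (log2 fold change -0.93, SE 0.11, adjusted p = 8.49e-05). Mapk3, which encodes ERK1, rose from 19.3 ± 5.22 to 37.4 ± 13.4 CPM in 4 of 4 pairs. The ERK feedback genes Dusp1 and Spry4 fell, from 29.4 ± 3.58 to 16.3 ± 3.07 CPM and from 87.5 ± 9.10 to 68.2 ± 7.59 CPM. Outside the list, Egr4, an early growth response factor, was at 1.97, 1.49, 1.88 and 1.67 CPM in control and at 4.76, 5.57, 5.30 and 8.59 CPM with RAM siRNA (log2 fold change 1.76, adjusted p = 5.38e-05). Of 40 Nodal, BMP and SMAD target genes 6 rose and 5 fell, and the 9 rises (22.5%) and 7 falls (17.5%) without replicate 2 were near the 21.5% and 14.5% of all genes. Id1, a BMP target, fell from 64.8 ± 23.4 to 38.9 ± 16.6 CPM and Lefty1, a Nodal antagonist, rose from 20.1 ± 10.3 to 37.0 ± 19.6 CPM, although it was lower in pair 4. The other falls of this list were Smad7, Tgfbr2, Inhbb and Smad4. Of 39 Wnt pathway genes 7 rose (17.9%, beside 9.88%) and 1, Wnt6, fell, and 10 (25.6%, beside 21.5%) rose and 4 (10.3%, beside 14.5%) fell without replicate 2. Of 23 genes of LIF and STAT3 signalling, which sustains ESC self-renewal, 1 rose, Jak2 (log2 fold change 0.67), and 3 fell, Bcl3 (-0.55), Socs2 (-0.39) and Junb. When replicate 2 was left out, 12 of these 23 genes fell (52.2%, beside 14.5% of all genes) and 1 rose.

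Of 33 genes of the ATF4 integrated stress response 2 fell and 0 rose, a share lowered of 6.06% that is near the 5.03% of all genes. Atf4 was at 413, 368, 344 and 405 CPM in control and at 283, 293, 261 and 355 CPM with RAM siRNA, lower in 4 of 4 pairs with overlap (log2 fold change -0.37, adjusted p = 0.0431). Its target Trib3 fell from 211 ± 28.7 to 165 ± 31.0 CPM. Without replicate 2 the list had 6 lower and 1 higher.

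Calls for the translation machinery and for oxidative phosphorylation depended on replicate 2. None of 85 cytosolic ribosomal protein genes was called in either direction by edgeR or DESeq2 with the 4 pairs, with 0 lower and 4 higher at an unadjusted p under 0.05 in edgeR. Their median log2 fold change was 0.24, 0.27 and 0.18 in pairs 1, 3 and 4 and -0.45 in pair 2, and without replicate 2 49 rose and 0 fell. The 76 mitochondrial ribosomal protein genes had pair medians of 0.17, -0.43, 0.21 and 0.15. With the 4 pairs 2 rose (2.63%) and 4 fell (5.26%, near the 5.03% of all genes), and without replicate 2 33 rose (43.4%, beside 21.5%) and 6 fell. Mrps17 was at 25.98, 20.6, 36.2 and 54.6 CPM in control and at 53.5, 27.0, 86.5 and 110.02 CPM with RAM siRNA (log2 fold change 0.94, adjusted p = 0.000318), a rise in every pair that was smallest in pair 2. Mrpl48 fell from 34.5 ± 6.45 to 21.9 ± 5.91 CPM. The other rise was Mrps22, and the other falls were Mrpl58, Mrps27 and Mrpl44.

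Nuclear-encoded subunits of oxidative phosphorylation rose in 5 of 84 cases with the 4 pairs (5.95%, below the 9.88% of all genes), with 0 falls, and in 56 cases without replicate 2 (66.7%, beside 21.5%), with 1 fall. The pair medians were 0.27, -0.40, 0.35 and 0.23. Uqcr10, of complex III, was at 19.4, 21.5, 25.5 and 32.7 CPM in control and at 28.0, 29.3, 36.5 and 42.7 CPM with RAM siRNA, and all 4 pairs rose (log2 fold change 0.47, adjusted p = 0.00783). Ndufa1, of complex I, was at 20.7, 20.3, 37.6 and 34.0 CPM in control and at 33.3, 20.3, 55.7 and 46.0 CPM, with no rise in pair 2. Uqcr11 (log2 fold change 0.40) and the tissue-specific subunits Cox6a2 (0.95) and Cox6b2 (0.74) made up the rest. The 7 mitochondrially encoded mRNAs tested had a median of 0.26 (0.16 without replicate 2), with pair medians of 0.30, 0.55, 0.33 and -0.14. With the 4 pairs 0 were called by edgeR or DESeq2 (3 higher at an unadjusted p under 0.05 in edgeR), and 1 was called higher without replicate 2. The share of counts from mitochondrial genes was 1.71%, 1.10%, 2.09% and 1.60% in control replicates 1 to 4 and 2.17%, 1.35%, 2.37% and 1.72% in RAM siRNA replicates 1 to 4, higher in each pair.

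**Figure D5:**
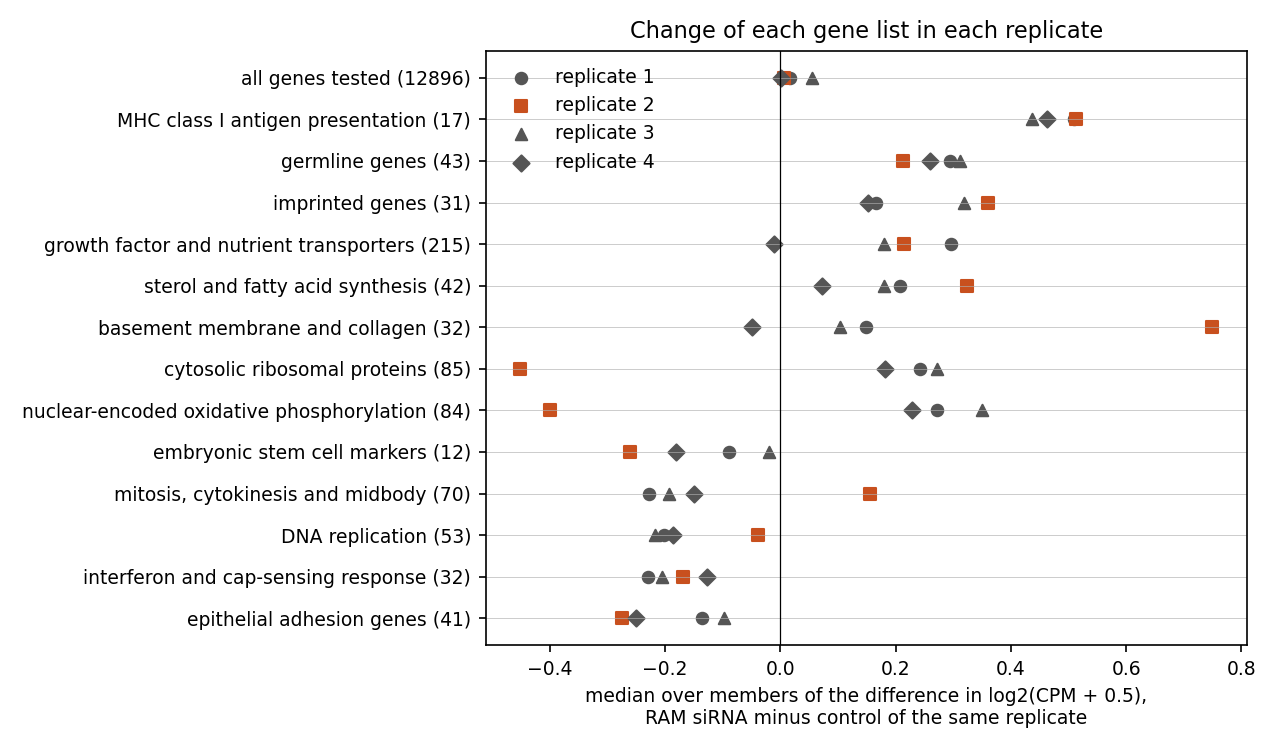
Median over the members of each gene list (y axis) of the difference in log2(CPM + 0.5) between RAM siRNA and control (x axis), with 1 point for each same-numbered pair of polysome libraries. Pair 2 lies on the other side of 0 from pairs 1, 3 and 4 for the ribosomal proteins, oxidative phosphorylation and mitosis, and the 4 pairs lie together for MHC class I, germline and interferon genes.

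Of 52 translation initiation factor genes 2 fell (3.85%, beside 5.03% of all genes) and 0 rose with the 4 pairs, and 9 fell and 3 rose without replicate 2. The 2 falls were Eif4e2, a cap-binding protein that represses translation (113 ± 28.6 to 89.3 ± 37.0 CPM), and Eif1b (13.6 ± 4.89 to 10.2 ± 4.45 CPM). Eif4a1, the helicase of cap-dependent initiation and the member with the highest CPM, was at 1433 ± 87.9 and 1639.7 ± 207 CPM (log2 fold change 0.19, adjusted p = 0.342). None of 15 elongation and release factor genes was called by edgeR or DESeq2 (1 lower and 1 higher at an unadjusted p under 0.05 in edgeR, and 3 lower and 1 higher called without replicate 2), and Eef1a1 was at 7513 ± 609.7 and 6868 ± 899.8 CPM (log2 fold change -0.14, adjusted p = 0.559). Of 38 aminoacyl-tRNA synthetase genes 2 fell, and without replicate 2 13 fell and 1 rose. Wars fell from 216 ± 9.29 to 165 ± 30.5 CPM. Lars2, the mitochondrial leucyl-tRNA synthetase, was at 84.1, 49.5, 225 and 380 CPM in control and at 46.4, 66.4, 51.4 and 85.9 CPM with RAM siRNA, lower in pairs 1, 3 and 4 and higher in pair 2, with the highest values in control replicates 3 and 4 (log2 fold change -1.21, adjusted p = 0.0137). In input its log2 fold change was 0.00. Ribosome biogenesis genes numbered 1 higher and 2 lower of 76 (8 and 16, or 10.5% and 21.1%, without replicate 2, beside 21.5% and 14.5% of all genes), and splicing factors 0 higher and 5 lower of 61 (4 and 22, or 6.56% and 36.1%, without replicate 2). The splicing falls were Esrp1, Hnrnpul1 (96.1 ± 2.87 to 52.1 ± 6.06 CPM), Hnrnph2, Ptbp2 and Ptbp3, and those of ribosome biogenesis Nifk and Nob1, with Nop10 as its rise.

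Of the proteasome subunit and assembly genes 3 of 48 rose and 3 fell, 6.25% each way beside 9.88% and 5.03% of all genes (6 and 9 without replicate 2, beside 21.5% and 14.5%). Psmb7, a catalytic subunit, rose from 264 ± 33.7 to 414 ± 80.1 CPM and Pomp, an assembly factor, from 70.2 ± 25.6 to 104 ± 47.5 CPM. The other rise was Psmb9, and the falls were the proteasome activators Psme2, Psme3 and Psme4.

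The 12 ESC markers were all expressed, and none was called in either direction by edgeR with the 4 pairs, where 3 were lower at an unadjusted p under 0.05. DESeq2 called 1 lower, and edgeR called 3 lower and 0 higher without replicate 2. Pou5f1, the factor Oct4, was at 691, 567, 766 and 1006 CPM in control and at 649, 359, 803 and 977 CPM with RAM siRNA, with pair 2 lowest (log2 fold change -0.18, SE 0.13, adjusted p = 0.414). Nanog was at 431, 382, 398 and 418 CPM in control and at 349.6, 333, 319 and 321 CPM with RAM siRNA. Its groups did not overlap, but it did not pass (log2 fold change -0.30, SE 0.11, adjusted p = 0.0856). Sox2 was at 258 ± 7.22 and 229 ± 14.4 CPM, Klf4 at 149 ± 15.5 and 139 ± 20.2 CPM, Esrrb at 225 ± 33.5 and 198 ± 45.1 CPM and Zfp42 at 656 ± 63.2 and 569 ± 84.1 CPM. The markers Utf1 and Fgf4 had log2 fold changes of -0.29 and -0.33. A p that misses the threshold does not show that these levels were equal, and 11 of the 12 fitted values lay below 0.

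Among 29 genes of naive pluripotency the shares raised and lowered, 3.45% and 6.90%, were below and near those of all genes, 9.88% and 5.03%. The rise was Pramel7 (5.88 ± 2.09 to 9.41 ± 2.31 CPM), and the 2 falls were Sox15 (8.59 ± 1.76 to 5.39 ± 1.02 CPM) and Prdm14 (11.7 ± 0.670 to 8.06 ± 0.589 CPM). Without replicate 2, 12 fell (41.4%, beside 14.5%) and 2 rose. Of 31 general pluripotency genes 2 rose, Dnmt3l, a cofactor of DNA methylation (183 ± 28.0 to 275 ± 64.2 CPM), and Alpl, alkaline phosphatase (143 ± 38.4 to 193 ± 57.4 CPM), and 0 fell, while without replicate 2 8 fell and 3 rose. Of 48 Polycomb and KMT2 complex genes 6 rose and 3 fell, 12.5% and 6.25% beside 9.88% and 5.03% of all genes (9 and 7 without replicate 2, beside 21.5% and 14.5%). Ezh2, the H3K27 methyltransferase, was at 123, 101, 89.2 and 99.4 CPM in control and at 81.5, 87.8, 59.3 and 71.1 CPM with RAM siRNA, with no overlap (log2 fold change -0.47, adjusted p = 0.0115). Ring1 and Phf19 fell with it, and Jarid2 (582 ± 287 to 858 ± 499 CPM) and Rbbp7 (323 ± 37.0 to 449.5 ± 100.1 CPM) rose.

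Markers of other cell types differed in level. Of 6 neural markers 5 were tested, and Dcx was at 0 in all 8 libraries. Their summed level was 87.6, 87.6, 75.3 and 97.6 CPM in control and 74.7, 97.3, 64.6 and 90.0 CPM with RAM siRNA, most of it Tubb3, and 1 changed, Pax6, a neural transcription factor that fell from 13.3 ± 1.24 to 6.99 ± 1.18 CPM. In the longer list of 35 neural genes 5 rose, Crmp1, Cdh2, Nefh and Dpysl3 among them, and 5 fell, Pax6 and Hes1 among them (4 and 8 without replicate 2). The member with the highest CPM, Stmn2, a microtubule regulator of neurons, was at 313 ± 66.8 and 281 ± 95.4 CPM and did not pass (adjusted p = 0.318). Sox21 fell from 8.79 ± 2.12 to 3.76 ± 0.956 CPM, the glutamate receptor gene Grin1 from 12.5 ± 2.54 to 5.21 ± 2.42 CPM, and Neurod1 from 2.24 ± 0.458 to 0.865 ± 0.215 CPM, mostly below the filter of 1 CPM with RAM siRNA. Of 5 primitive endoderm markers 4 were tested. Dab2 rose (log2 fold change 0.52) and Sox7 fell (-0.91). Of 5 trophoblast markers 1 was tested, Eomes, and it was not called. In the longer list of 16 primitive endoderm and trophoblast genes 4 rose (25.0%, beside 9.88% of all genes) and 2 fell (12.5%, beside 5.03%), and 6 rose and 3 fell without replicate 2. The endocytic receptor gene Lrp2 was at 47.2, 57.8, 38.4 and 39.5 CPM in control and at 71.3, 159, 63.3 and 49.8 CPM with RAM siRNA, a rise in every pair that was widest in pair 2. Amn, which encodes a partner of such receptors, rose from 3.91 ± 0.458 to 6.89 ± 0.917 CPM, and the other rises were Dab2 and Pdgfra. The trophoblast factor gene Tfap2c fell with Sox7 (log2 fold change -0.51), and Plet1, the member with the highest CPM, was at 100.1 ± 31.9 and 119.8 ± 37.4 CPM and did not pass. The list medians were 0.20, 0.19, 0.19 and 0.08 in pairs 1 to 4.

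The rises of mesenchymal genes were accompanied by rises in fibroblast and feeder genes, 6 of 10 in the longer list, with 0 falls. Some of these genes are also in the mesenchymal list, and without replicate 2 the counts were 4 and 0. The 6 include Acta2, which passed the filter on low counts only through the RAM siRNA libraries. They also include Pdgfra (6.04 ± 1.72 to 10.3 ± 6.30 CPM) and Pdgfrb (4.28 ± 0.667 to 6.51 ± 1.77 CPM), and both were all but level in pair 4. Of the 6 defining fibroblast or feeder markers 1 was tested, Thy1, which was not called. Their summed level was 9.37, 12.9, 18.9 and 19.7 CPM in control and 16.7, 13.5, 23.4 and 17.5 CPM with RAM siRNA, most of it Thy1. The other 5 summed to 0.937, 1.49, 0.886 and 1.35 CPM in control and 1.43, 3.06, 1.40 and 1.49 CPM with RAM siRNA, higher in each pair, and Col3a1 was at 0 in 7 of 8 libraries. The part of other cells in these rises was not tested.

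Noncoding RNAs of the nucleus, which are not translated, rose in 3 of 13 cases (23.1%, beside 9.88% of all genes) and fell in 0. The rises were Malat1, Firre and Kcnq1ot1. Without replicate 2 the counts were the same, a share raised that is near the 21.5% of all genes. Malat1 was at 207, 156, 142 and 98.0 CPM in control and at 281, 202, 213 and 115 CPM with RAM siRNA, higher in 4 of 4 pairs with overlap (log2 fold change 0.41, adjusted p = 0.0233). Firre rose from 2.57 ± 0.543 to 4.12 ± 0.813 CPM. The list median was 0.34, with pair medians of 0.21, 0.35, 0.39 and -0.07. Of 335 processed pseudogenes 5 rose and 4 fell.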

How the data were processed

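The authors mapped the reads to mm10 (GRCm38) with STAR and counted them on genes with HTSeq. The deposited table holds raw counts. The submitters' processing notes give STAR 2.5.1b. The strand and overlap settings of the counting are not given in the sources used here. All 8 polysome columns and the 8 input columns of the table were matched to samples by name, and 0 columns belong to other samples. Chi-square tests between replicates found no library that repeats another.

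CPM were computed with library sizes scaled by TMM. RAM siRNA and control polysomes were compared in edgeR 4.0.16 (R 4.3.3) by quasi-likelihood, with the replicate number as a block, with Benjamini-Hochberg adjustment over the 12896 genes and a threshold of 0.05. The block was set with the comparison and not chosen from the correlations. Libraries of the same number deviated together from their group means (r of 0.605, 0.935, 0.874 and 0.950 for numbers 1 to 4). Of the 12 pairs of different numbers, control 1 with RAM siRNA 2 reached 0.667 and control 4 with RAM siRNA 3 reached 0.437, and deviations from a group mean lower such values by construction. The paper's text gives the transfections as made on independent occasions, and that libraries of 1 number share an occasion is read from the data. Input was fitted in the same way, and the difference between the fractions as an interaction with the block within each fraction. Log2 fold changes have the standard error of the fit, and CPM the SD of 4 libraries. Intervals and p-values cover the spread between libraries only. The fit of RAM siRNA against control was tested on simulated data with known changes, in which the replicate effect was the same in both groups. The interaction and the word counts were not tested in this way.

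The comparison, the gene lists and the alternatives were chosen with earlier results of these data known. The genes named are Ramac, Rnmt, the ESC markers, the 12 largest changes in each direction at 10 CPM or more with the same direction in all 4 pairs, the 12 smallest p-values in each direction, the genes called without the block, and in each list up to 4 members with the smallest p and the most abundant one. Others were named after their values were seen: Pola2, Mycl, Cdkn2a, Cdkn1a, Ccnd2, H2-M3, B2m, Tap2, H2-Q4, Tapbp, Psme2, Psme4, Ajuba, Dsc2, Cgn, Timp1, Cdc25c, Bub3, Stra8, Ddx4, Elovl6, Acly, Wnt6, Trp53inp2, Dab2, Neurod1, Srp14, Phf19, Uqcr11, Mrps22, Mrpl58, Crmp1, Cdh2, Dpysl3, Hes1, Smad7, Tgfbr2, Inhbb, Smad4, Ptbp2, Fth1, Cd81 and Nelfb. Some genes that this rule names are not reported here. Lists are described by counts and medians without a test. UTR words were counted in the annotation's 3′ UTRs, and miRNA seeds are from RefSeq.

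The alternatives were no block, DESeq2 1.42.0, limma-voom (limma 3.58.1), the likelihood ratio test, other scalings and filters, a test against 1.2-fold, an adjusted p under 0.01, each library or pair left out, and pairs 1 and 2 or 3 and 4 alone. The list counts and word shares without replicate 2, and the word shares without the block, were chosen after seeing the data.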

Additional observations from a re-analysis of the deposited data

Results flagged for a closer look

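The changes of Syap1 and Cep55 differed between polysomes and input, by -1.29 and -1.04 on the log2 scale (edgeR interaction with the block within each fraction, adjusted p = 0.00215 and 0.00188), lower in polysomes in 4 of 4 pairs for both. Neither passed without the block or with a factor for each culture, which is the fit that pairs the fractions of a culture.

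Single libraries far from the rest of their group were looked for in 476 groups of 4 values (the named genes and library measures), by Dixon's ratio of the gap to the nearest library over the group's range, at its 95% critical value. Chance gives such a gap in about 1 of 20 groups, and it was found in 25 (5.25%). RAM siRNA replicate 2 was the outlying library in 7 of them. There it was the highest for Coq3 (gap 0.859 of the range), Col5a2 (0.877), Acly (0.854), Tns3 (0.834) and Sox7 (0.847), it was the lowest for Fth1 (0.872), and it was the highest for the share of protein-coding counts (0.854), which was 98.1% in that library and 97.0%, 96.8% and 96.8% in replicates 1, 3 and 4. The other outlying RAM siRNA libraries were replicate 4 for Snai3 (0.866) and Aldoa (0.847), highest in both, and for Ern1, lowest (0.930), replicate 3 for Trdmt1, lowest (0.844), and replicate 1 for Junb, lowest (0.858). In control, replicate 3 was highest for Cldn7 (0.863), Smoc1 (0.864), Ring1 (0.976), Cln3 (0.928) and Fgf4 (0.906) and lowest for E2f8 (0.841). Control replicate 4 was highest for Socs2 (0.933), Selenom (0.934) and H2-Q7 (0.838) and lowest for Cdh2 (0.902). Control replicate 1 was highest for Coq3 (0.844) and lowest for Junb (0.877), and replicate 2 was lowest for Sfn (0.858).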

How the results depend on the processing

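In ratio, the counts moved most without the block. Leaving out replicate 2 raised both counts, and leaving out any other replicate lowered both. Without the replicate block that pairs libraries of the same number, 9 genes fell and 9 rose with RAM siRNA in polysomes, against 649 and 1274 with it, and 1188 genes had an unadjusted p under 0.05. Leaving out 1 library or 1 pair gave 264 to 2298 lower and 553 to 2774 higher genes. Without control replicate 2, RAM siRNA replicate 2 or both, at least 1873 were lower and 2641 higher, and without any of the other libraries at most 432 were lower and 829 higher. Pairs 1 and 2 alone gave 124 lower and 308 higher, and pairs 3 and 4 alone 1182 and 2070. The test against 1.2-fold gave 206 and 500, and an adjusted p under 0.01 gave 256 and 557. DESeq2, limma-voom, the likelihood ratio test, the other scalings and the filters kept both counts within 1.5 times. With library sizes alone, 882 were lower and 981 higher, so the lower genes were 47.3% of the calls and not 33.7%, and the median of all genes was -0.03 and not 0.03. For the difference between fractions, 0 genes were called without the block and 0 with a factor for each culture. None of the 221 named genes that were called changed direction in any of 26 alternatives, and 111 passed in all but the fit without the block and those of only 2 pairs. The alternatives use the same libraries, and most of these genes were named for a small p or a large change. A kept direction was therefore likely beforehand. Pou5f1, which was not called, had a log2 fold change of 0.0129 in pairs 3 and 4 alone. The polysome counts carry no measure of the amount of polysomal RNA, and genes near 1 CPM have about 20 counts or fewer a library.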

Other observations

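Several gene groups not described in the report are given here with their counts in edgeR with the 4 pairs. The shares of all genes beside them are 5.03% lowered and 9.88% raised. Chromatin remodelling by BAF and INO80 had 3 lower and 0 higher of 45. Ino80b, a subunit of INO80, fell from 26.7 ± 5.82 to 15.4 ± 4.33 CPM (SD, n = 4), with every RAM siRNA value below the control values, and the BAF subunits Smarcd3 (log2 fold change -0.47) and Smarce1 (-0.38) fell as well. In transcription initiation and elongation 4 of 109 genes were lower and 1 higher. Med6, a subunit of Mediator, fell from 104 ± 8.43 to 61.6 ± 12.8 CPM and Taf1b, of the RNA polymerase I factor SL1, from 56.4 ± 4.67 to 36.8 ± 2.89 CPM, both with no overlap between the groups. The elongation factor genes Ell2 (-0.48) and Nelfb (-0.40) were the other falls, and Taf7l was the rise. Among the heat shock proteins and chaperonins 3 of 40 were lower and 0 higher, the co-chaperone genes Dnajb6 (73.9 ± 5.39 to 49.2 ± 4.60 CPM) and Dnajb1 (71.9 ± 10.8 to 52.1 ± 12.1 CPM) and Hsph1, which was higher in 1 of 4 pairs. Small RNA silencing and NMD had 1 lower, the deadenylase gene Cnot6, and 0 higher of 48.

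Membrane traffic genes of the Rab and Tbc1d families had 5 lower and 5 higher of 75. Rab3b rose from 1.54 ± 0.275 to 3.88 ± 1.04 CPM and Rab15 fell from 3.13 ± 0.621 to 1.38 ± 0.446 CPM, each in 4 of 4 pairs and with no overlap. Rab4a, of early endosomes, rose (log2 fold change 0.60) and Tbc1d19 fell (-0.57). Of 43 selenoprotein, polyamine and iron genes 5 were higher and 0 lower, namely Selenon (0.70), Selenom (0.67), the ornithine decarboxylase antizyme Oaz1 (0.42), the iron importer Slc11a2 (0.41) and the ferritin heavy chain Fth1 (0.37). Of 31 integrin and focal adhesion genes 3 were higher, Tns3, Itgb5 and Cd81, and 2 lower, Itgb7 and Sdc1. In glycolysis 2 of 27 were higher, the lactate exporter Slc16a3 (33.7 ± 11.3 to 59.9 ± 17.8 CPM) and Aldoc, and 1 lower, Aldoa (967.6 ± 46.7 to 758 ± 47.8 CPM). Formative and primed pluripotency genes had 2 higher, Sfrp2 and Lefty1, and 0 lower of 23. None of 14 snoRNA host genes was called by edgeR or DESeq2, with 3 higher and 0 lower at an unadjusted p under 0.05 in edgeR.

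Without replicate 2 these counts were 10 lower and 3 higher for chromatin remodelling, 22 and 20 for transcription initiation and elongation, 11 and 5 for heat shock proteins, 13 and 1 for small RNA silencing and NMD, 14 and 9 for membrane traffic, 5 and 13 for selenoprotein, polyamine and iron genes, 7 and 6 for integrins, 7 and 5 for glycolysis, 2 and 6 for formative and primed pluripotency, and 0 and 3 for snoRNA hosts, beside 14.5% of all genes lower and 21.5% higher.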
